A study of Mus musculus with 12 samples.

Results

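Chemokine genes whose products attract monocytes and T cells were described in mouse bone marrow-derived macrophages (BMDMs), which are macrophages grown in vitro from bone marrow cells with the growth factor M-CSF. The genes were Ccl2, Ccl7, Ccl12, Ccl3, Ccl4, Ccl5, Ccl9, Cxcl10 and Cxcl16, named as a list and matched by symbol to the Ensembl identifiers of the count tables. All 9 were found among the 48795 genes listed, and all 9 were among the 11228 genes tested. RNA was sequenced in 12 libraries, 2 for each of 6 groups. WT cells were labelled with the strain C57BL/6 and Acod1-/- cells with the strain C57BL/6NJ-Acod1em1(IMPC)J/J. Cells of each genotype received vehicle (Control), particulate matter (PM) at 20 μg/cm2 for 24 hours, or 4-octyl itaconate (OI) at 0.25 mM for 2 hours before PM (OI+PM). OI is a cell-permeable derivative of itaconate, the metabolite that the enzyme encoded by Acod1 makes. No group received OI without PM, so OI is compared here only against PM and, for both agents together, against vehicle. The labels do not say whether replicate libraries came from separate mice or cultures, so p-values measure the spread between these libraries, which may be technical. The question was how PM changed these chemokine mRNAs, whether OI before PM changed them, and whether either effect differed in cells labelled Acod1-/-.

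Chemokines are small secreted proteins that bind receptors of the G protein-coupled family on leukocytes and direct their migration. The products of Ccl2, Ccl7 and Ccl12 act on CCR2, the receptor by which classical monocytes leave the bone marrow and enter tissue. The products of Ccl3, Ccl5 and Ccl9 act on CCR1, a receptor of monocytes and macrophages, and that of Ccl4 is an inflammatory CC chemokine that attracts monocytes and T cells. CXCL10 binds CXCR3, which marks activated T cells and NK cells, and its gene is known for its response to interferons. CXCL16 is made as a transmembrane protein that is cut from the cell surface by the proteases ADAM10 and ADAM17, and its receptor is CXCR6.

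The stretches of 250 bases before the start of the gene are shown for the 4 of the 9 genes that the RefSeq promoter table (GRCm38.p6) held. The choice was set by that table and not by how the genes moved with PM and OI. Ccl5, Ccl7, Ccl2, Ccl4 and Cxcl16 were not in that table. Cxcl10 (chr5:92348890-92349139, minus strand) and Ccl9 (chr11:83578637-83578886, minus strand) were higher after PM and lower with OI. Ccl12 (chr11:82101595-82101844, plus strand) was lower with OI and did not pass the test for PM. Ccl3 (chr11:83649379-83649628, minus strand) showed the smallest differences with OI of the 9 genes. The sequences run 5′ to 3′ on the strand of the gene, and capitals mark matches to 4 motifs searched on both strands. These were a κB motif (GGGA, any 4 bases, then CC), an interferon-stimulated response element or ISRE (GAAA, any 2 bases, then GAAA), an AP-1 motif (TGANTCA) and a TATA box (TATAAA).
Cxcl10: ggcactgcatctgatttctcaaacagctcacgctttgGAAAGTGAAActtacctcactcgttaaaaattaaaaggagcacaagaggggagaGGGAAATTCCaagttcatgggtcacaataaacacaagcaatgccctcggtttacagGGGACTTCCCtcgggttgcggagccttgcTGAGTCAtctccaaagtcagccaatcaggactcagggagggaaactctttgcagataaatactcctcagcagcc
Ccl9: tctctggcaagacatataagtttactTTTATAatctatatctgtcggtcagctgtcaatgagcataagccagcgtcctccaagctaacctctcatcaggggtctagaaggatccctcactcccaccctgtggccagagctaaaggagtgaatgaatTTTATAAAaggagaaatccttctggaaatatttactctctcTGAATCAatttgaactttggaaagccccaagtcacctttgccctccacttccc
Ccl12: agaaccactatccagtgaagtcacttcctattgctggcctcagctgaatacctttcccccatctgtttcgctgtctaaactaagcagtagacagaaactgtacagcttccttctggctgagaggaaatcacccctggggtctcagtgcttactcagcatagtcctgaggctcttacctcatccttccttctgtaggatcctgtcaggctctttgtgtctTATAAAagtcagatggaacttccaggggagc
Ccl3: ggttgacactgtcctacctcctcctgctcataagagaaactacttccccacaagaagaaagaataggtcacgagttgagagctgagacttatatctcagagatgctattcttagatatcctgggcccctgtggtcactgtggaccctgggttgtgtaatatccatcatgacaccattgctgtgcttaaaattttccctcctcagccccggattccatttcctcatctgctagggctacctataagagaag
In Cxcl10 the κB letters were found at -159 to -150 and at -103 to -94 relative to the start, the latter matching on both strands, with the ISRE letters upstream of both, ending at -204, and the AP-1 letters at -74 to -68. In Ccl9 the AP-1 letters stood at -53 to -47, and TATAAA matched at -224 to -219 and, as overlapping matches on opposite strands, at -94 to -89 and -92 to -87. In Ccl12 TATAAA at -31 to -26 was the only match, and in Ccl3 none of the 4 motifs matched in this window. The Ccl3 window stops at 83649379, while the gene extent given below ends at 83649355. Bases between these positions were thus not searched, whereas the windows of Cxcl10, Ccl9 and Ccl12 adjoin their gene extents. Of all 32851 promoter windows of the same length, 17.6% held the κB letters, 2.98% the ISRE letters, 6.75% the AP-1 letters and 12.4% the TATA letters. A match is a string of letters and no measure of binding.

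The libraries held between 33616577 and 36817898 counts. The Acod1 gene (ENSMUSG00000022126.6, chr14:103046977-103056573) was checked first. In WT libraries it had 69 and 98 counts with vehicle, 6346 and 5908 with PM, and 1087 and 1688 with OI+PM. In libraries labelled Acod1-/- it had 46 and 44, 3660 and 3271, and 812 and 871 counts. The libraries labelled Acod1-/- were below the WT libraries in each treatment, by 0.81, 0.80 and 0.81 on the log2 scale, with adjusted p of 0.492, 0.0807 and 0.0509. Counts per gene do not show which exons the reads covered, so this is no check of the deleted part. The summed level of 9 macrophage markers was between 14536 and 27601 normalized CPM in every library. CPM is a count divided by its library's total and set to a common scale, here with TMM factors. The summed levels of 9 T and NK cell, 8 dendritic cell, 8 fibroblast and 6 mast cell and basophil markers stayed at or below 3.77 normalized CPM. The 10 neutrophil markers summed to between 26.4 and 74.1, with Ly6g at 0 to 1 counts. The 6 B cell markers summed to between 92.9 and 189 with OI+PM and to at most 24.8 in the other groups. Ighm gave between 91.7 and 188 of that with OI+PM, while Cd79a had at most 2 counts in any library.

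Ccl9 had the highest level of the 9 genes in every group. Per kilobase of exonic length it stood at 312 CPM in WT cells with vehicle, 549 with PM and 178 with OI+PM, and at 364, 649 and 239 in cells labelled Acod1-/-. That was between 44.8% and 68.7% of the summed level per kilobase of the 9 genes. Ccl2, Ccl3 and Ccl4 followed in both vehicle groups, at between 88.2 and 152 CPM per kilobase. Ccl12, Ccl5 and Cxcl10 were at or below 4.97 CPM per kilobase in vehicle-treated cells of either genotype. After PM the order of the rarer genes differed, with Ccl5 at 26.5 and 30.8 and Cxcl10 at 5.57 and 7.81 CPM per kilobase in the WT and the labelled Acod1-/- cells. With OI+PM, Ccl12, Ccl7 and Cxcl10 were the lowest, between 0.114 and 1.52 CPM per kilobase. Whether fewer cells made a chemokine or each cell held less of its RNA cannot be told apart in bulk libraries.

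**Figure D1:**
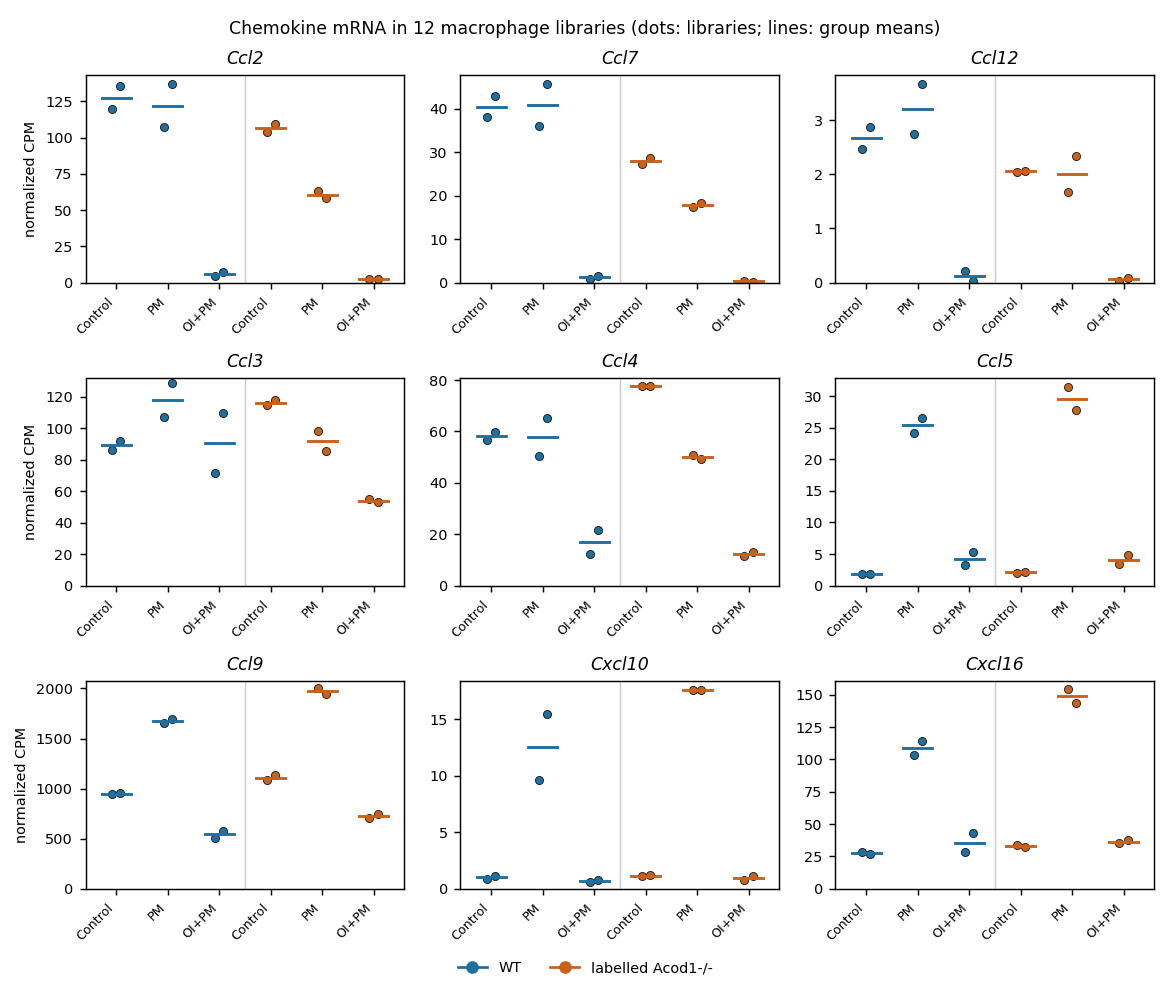
Normalized CPM (y axis, linear and starting at 0, a scale for each gene) of the 9 chemokine genes in the 12 libraries. Dots are libraries and lines are means of 2, for vehicle (Control), PM and OI+PM in WT cells (blue) and cells labelled Acod1-/- (orange). Ccl5, Cxcl10, Cxcl16 and Ccl9 are highest with PM, while Ccl2, Ccl7 and Ccl12 are near 0 with OI+PM.

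Of the CCR2 ligands, Ccl2 (ENSMUSG00000035385.5, chr11:82035571-82037453), the main attractant of monocytes, was abundant without PM. In WT cells its normalized CPM was 119 and 136 with vehicle, 107 and 137 with PM, and 4.64 and 7.17 with OI+PM. The values in cells labelled Acod1-/- were 104 and 109, 63.2 and 58.3, and 2.31 and 2.43. The WT vehicle and WT PM libraries overlapped, the PM libraries labelled Acod1-/- lay below all of these, and both OI+PM groups lay far below every other library. The difference with PM was -0.06 ± 0.15 (log2 fold change ± SE) in WT cells, with an adjusted p of 0.768, and PM lowered Ccl2 by -0.81 ± 0.16 in cells labelled Acod1-/-, with an adjusted p of 0.00433. OI before PM lowered it 20.8-fold in WT cells (log2 fold change -4.38 ± 0.19, adjusted p 5.34e-08) and 25.6-fold in cells labelled Acod1-/- (-4.68 ± 0.20, adjusted p 6.17e-08).

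Ccl7 (ENSMUSG00000035373.2, chr11:82045712-82047525), which also attracts monocytes, had a similar pattern at a lower level. In WT cells it stood at 38.2 and 42.9 normalized CPM with vehicle, 36.0 and 45.7 with PM, and 0.809 and 1.62 with OI+PM. Cells labelled Acod1-/- had 27.4 and 28.6, 17.5 and 18.4, and 0.391 and 0.216. The 3 pairs of libraries labelled Acod1-/- did not overlap with each other, whereas the WT vehicle and PM pairs did. Its log2 fold change with PM was 0.01 ± 0.16 in WT cells (adjusted p 0.969) and -0.64 ± 0.17 in cells labelled Acod1-/- (adjusted p 0.0202). Leaving out any 1 of the 4 libraries compared took the latter to adjusted p between 0.0844 and 0.137. OI lowered Ccl7 by -5.09 ± 0.23 in WT cells (adjusted p 7.48e-08) and by -5.87 ± 0.29 in cells labelled Acod1-/- (adjusted p 1.56e-07), which was the largest fall of the 9 genes in each genotype with all libraries. Without WT OI+PM library 1 it was -4.65 in WT cells, a smaller fall than that of Ccl12 (-6.42). Likewise, without OI+PM library 2 of the cells labelled Acod1-/- it was -5.51 there, beside -5.90 for Ccl12. The OI+PM libraries held 27, 48, 13 and 7 counts of Ccl7.

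Ccl12 (ENSMUSG00000035352.3, chr11:82101845-82103400), a mouse relative of Ccl2, was rare throughout. In WT cells it was at 2.46 and 2.88 normalized CPM with vehicle, 2.74 and 3.66 with PM, and 0.210 and 0.034 with OI+PM. Libraries labelled Acod1-/- gave 2.05 and 2.05, 1.68 and 2.33, and 0.030 and 0.092. The vehicle and PM libraries overlapped within each genotype, and all OI+PM libraries lay below them. PM gave log2 fold changes of 0.26 ± 0.23 (adjusted p 0.407) and -0.03 ± 0.26 (adjusted p 0.934) in WT and labelled Acod1-/- cells. OI gave -4.62 ± 0.42 (adjusted p 1.29e-05) and -4.96 ± 0.52 (adjusted p 3.99e-05). These falls rest on 223 against 8 counts in WT cells, a ratio of 25.2 with a 95% exact interval of 12.6 to 59.0, and on 138 against 4 counts in cells labelled Acod1-/-, a ratio of 33.0 with an interval of 12.6 to 123. The intervals cover counting error only. In WT cells the log2 fold change was -6.42 without OI+PM library 1 and -3.91 without library 2, and in cells labelled Acod1-/- it was -4.39 and -5.90, with every adjusted p at or below 0.00114.

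Among the other CC ligands, Ccl3 (ENSMUSG00000000982.5, chr11:83647844-83649355), also called MIP-1α, had the smallest differences with OI. In WT cells it was at 86.4 and 91.9 normalized CPM with vehicle, 107 and 129 with PM, and 71.7 and 110 with OI+PM. The values in cells labelled Acod1-/- were 115 and 118, 98.6 and 85.7, and 54.8 and 53.4. Both WT PM libraries lay above both WT vehicle libraries, both PM libraries labelled Acod1-/- lay below their vehicle libraries, and the WT OI+PM pair spanned the WT vehicle pair. The log2 fold change with PM was 0.40 ± 0.17 (adjusted p 0.102) in WT cells and -0.34 ± 0.17 (adjusted p 0.174) in cells labelled Acod1-/-. OI lowered Ccl3 by -0.77 ± 0.17 in cells labelled Acod1-/- (adjusted p 0.00560). In WT cells the value was -0.38 ± 0.17 (adjusted p 0.0932), and without the WT OI+PM library 2 it was -0.72. It passed in edgeR with a correction for exonic length (-0.62, adjusted p 1.115e-05) and with scaling by total counts (-0.52, adjusted p 0.0179).

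Ccl4 (ENSMUSG00000018930.3, chr11:83662584-83664683), also called MIP-1β, was at 56.6 and 59.8 normalized CPM in WT cells with vehicle, 50.5 and 65.3 with PM, and 12.1 and 21.8 with OI+PM. Cells labelled Acod1-/- had 77.7 and 77.5, 51.0 and 49.4, and 11.5 and 13.2. The vehicle libraries labelled Acod1-/- were the highest of the 12, and the OI+PM libraries of the 2 genotypes overlapped. With PM its log2 fold change was -0.01 ± 0.21 (adjusted p 0.978) in WT cells. Libraries labelled Acod1-/- gave -0.63 ± 0.21 with an adjusted p of 0.0519, just outside the threshold, and 0.0140 in DESeq2 on all libraries. OI lowered Ccl4 3.42-fold in WT cells (-1.78 ± 0.22, adjusted p 0.000112) and 4.08-fold in cells labelled Acod1-/- (-2.03 ± 0.22, adjusted p 5.63e-05).

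Ccl5 (ENSMUSG00000035042.2, chr11:83525778-83530518), known as RANTES, attracts T cells as well as monocytes. It rose from 1.90 and 1.83 normalized CPM with vehicle to 24.2 and 26.6 with PM in WT cells, and stood at 3.26 and 5.28 with OI+PM. It rose likewise in cells labelled Acod1-/-, from 2.00 and 2.19 to 31.5 and 27.7, with 3.49 and 4.77 in the OI+PM libraries. Both PM groups lay above all other libraries, and the 4 OI+PM libraries stayed above all 4 vehicle libraries. PM raised Ccl5 13.6-fold in WT cells (log2 fold change 3.77 ± 0.21, adjusted p 1.59e-06) and 14.1-fold in cells labelled Acod1-/- (3.82 ± 0.21, adjusted p 1.09e-06). OI before PM lowered it 5.99-fold (-2.58 ± 0.19, adjusted p 2.87e-06) and 7.16-fold (-2.84 ± 0.19, adjusted p 1.50e-06).

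Ccl9 (ENSMUSG00000019122.8, chr11:83572919-83578636), a CCR1 ligand of the mouse, had no overlap between any of the 6 groups. In WT cells it was at 945 and 953 normalized CPM with vehicle, 1656 and 1690 with PM, and 504 and 579 with OI+PM. Cells labelled Acod1-/- had 1087 and 1131, 2005 and 1947, and 709 and 744. The OI+PM groups thus lay below the vehicle groups, and the groups labelled Acod1-/- above the WT groups of the same treatment. PM raised Ccl9 1.76-fold in WT cells (0.82 ± 0.07, adjusted p 2.46e-05) and 1.78-fold in cells labelled Acod1-/- (0.83 ± 0.07, adjusted p 1.66e-05). OI lowered it 3.09-fold (-1.63 ± 0.07, adjusted p 5.23e-08) and 2.72-fold (-1.44 ± 0.07, adjusted p 1.15e-07).

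Of the CXC ligands, Cxcl10 (ENSMUSG00000034855.13, chr5:92346638-92348889) had the largest rise with PM in cells labelled Acod1-/- among the 9 genes, with Ccl5 close to it. With a library left out, this log2 fold change was 3.84 to 4.00 for Cxcl10 and 3.72 to 3.91 for Ccl5. In WT cells Cxcl10 stood at 0.855 and 1.12 normalized CPM with vehicle, 9.60 and 15.5 with PM, and 0.599 and 0.778 with OI+PM. Libraries labelled Acod1-/- gave 1.09 and 1.22, 17.6 and 17.6, and 0.752 and 1.08. All PM libraries lay above all others, and the OI+PM libraries lay below the vehicle libraries of the same genotype. Only the PM libraries had Cxcl10 above the 1.5 CPM required for testing. It was thus tested only through the groups where it was high, and its calls for PM and OI carry that limit. PM raised Cxcl10 12.6-fold in WT cells (3.66 ± 0.26, adjusted p 7.32e-06) and 15.1-fold in cells labelled Acod1-/- (3.92 ± 0.25, adjusted p 3.11e-06). OI lowered it by -4.19 ± 0.29 (adjusted p 1.48e-06) and -4.26 ± 0.27 (adjusted p 8.02e-07), from 874 to 43 counts in WT cells and from 1209 to 60 in cells labelled Acod1-/-.

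Cxcl16 (ENSMUSG00000018920.11, chr11:70453983-70459984), the transmembrane ligand of CXCR6, was at 28.1 and 26.8 normalized CPM in WT cells with vehicle, 104 and 114 with PM, and 28.1 and 43.1 with OI+PM. The values in cells labelled Acod1-/- were 33.9 and 32.0, 155 and 144, and 35.1 and 37.6. The PM libraries stood apart from all others, and the OI+PM libraries were at or above the vehicle libraries of their genotype. PM raised it 3.97-fold in WT cells (1.99 ± 0.16, adjusted p 1.96e-05) and 4.53-fold in cells labelled Acod1-/- (2.18 ± 0.16, adjusted p 8.04e-06). OI lowered it 3.06-fold (-1.61 ± 0.16, adjusted p 2.24e-05) and 4.11-fold (-2.04 ± 0.16, adjusted p 4.40e-06). The exons of Cxcl16 overlap those of Zmynd15 on the opposite strand, which had 8 to 147 counts against 938 to 5264 for Cxcl16. Those of Cxcl10 overlap Art3 in the same way, which had at most 2 counts. The strand setting of the counting is not given in the sources used here, so overlapping reads cannot be assigned.

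With PM, 4 of the 9 genes rose in WT cells, namely Ccl5, Cxcl10, Cxcl16 and Ccl9, and none fell. Of these, Cxcl10 was tested only through its PM libraries, where it was high. Over all tested genes 24.8% passed this test, 12.6% as higher and 12.2% as lower. The median log2 fold change was 0.40 over the 9 genes and 0.01 over all genes. In cells labelled Acod1-/- the 4 genes named also rose, Ccl2 and Ccl7 fell, and Ccl12, Ccl3 and Ccl4 did not pass. There 23.9% of all genes passed, 12% as higher and 11.9% as lower, and the median of the 9 genes was -0.03. A log2 fold change of at least 1 was reached by Ccl5, Cxcl10 and Cxcl16 in each genotype, beside 3.02% and 3.19% of all genes called higher at that size. The rises were thus found among ligands of CXCR3 and CXCR6 and in part of those of CCR1, where Ccl5 and Ccl9 passed but Ccl3 did not. No CCR2 ligand passed as higher. Of the 4 neutrophil markers tested, S100a8, S100a9 and Csf3r rose with PM in each genotype. The summed level of the 10 markers listed was 26.5 to 28.5 normalized CPM with vehicle and 43.8 to 50.9 with PM in WT cells, and 26.4 to 26.7 and 54.9 to 58.0 in cells labelled Acod1-/-, and its part in the chemokine result was not tested. In the WT PM pair, library 2 was higher than library 1 for all 9 genes, and in the WT OI+PM pair for 8 of 9. The share of all tested genes higher in library 2 was not counted, so these counts are a description only. The difference between the libraries of these pairs went with exonic length across all genes (Spearman rho 0.60 and 0.61 over 11208 genes, a description). Short genes were higher in library 2, and 7 of the 9 genes have 2252 exonic bases or fewer. However, the exception in the WT OI+PM pair was Ccl12, the shortest of the 9 genes at 537 bases. The longest, Ccl9 and Cxcl16 at 3045 and 3021 bases, were higher in library 2 of both pairs. The part of length in these counts was not tested. With a correction for length the count for PM in WT cells became 7, because Ccl2, Ccl7 and Ccl4 then passed as lower, at -0.35, -0.30 and -0.34 with adjusted p of 0.00246, 0.0284 and 0.00785.

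**Figure D2:**
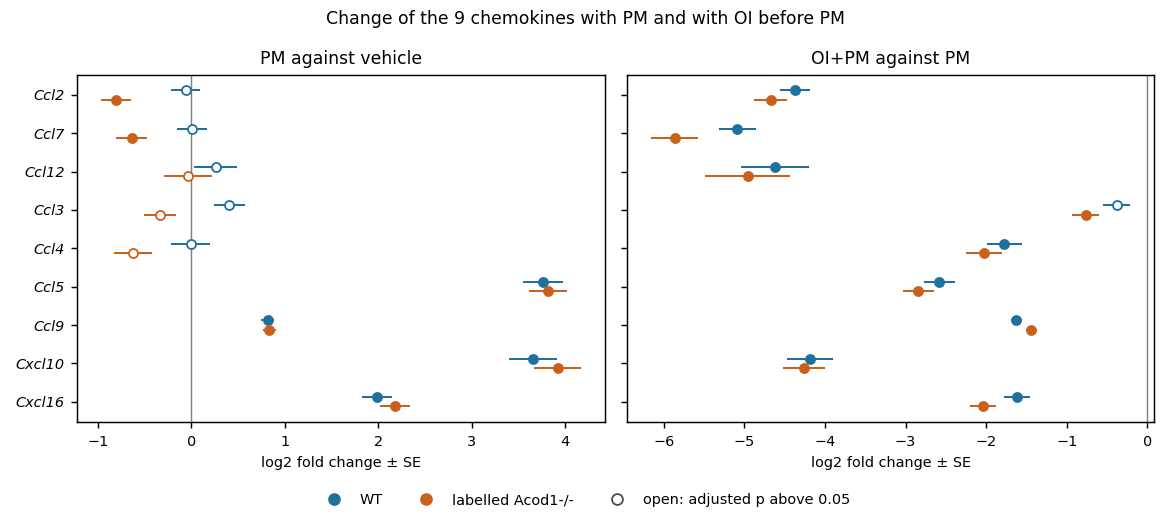
Log2 fold change (x axis) with its standard error for each chemokine gene (y axis), for PM against vehicle (left) and OI+PM against PM (right), in WT cells (blue) and cells labelled Acod1-/- (orange). Filled points have an adjusted p of 0.05 or less. With PM, Ccl5 and Cxcl10 sit between 3.66 and 3.92 and Ccl2 between -0.81 and -0.06. With OI every point is below 0.

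With OI before PM, 8 of the 9 genes fell in WT cells, beside 22.6% of all genes lower and 43.9% called in either direction. Among these, Cxcl10 was tested only through its PM libraries. Ccl3 was the exception, and it passed with the length correction or with scaling by total counts. In cells labelled Acod1-/- all 9 fell, beside 20.6% of all genes lower and 34.6% called in either direction. The median log2 fold change of the 9 genes was -2.58 and -2.84, against 0.02 and -6e-04 over all tested genes. A fall of at least 2-fold was called for 8 of the 9 in each genotype, beside 8.49% and 7.98% of all genes. The CCR2 ligands and Cxcl10 fell most, by between -5.87 and -4.19, and Ccl3 least. The sum of the 9 genes went from 2162 to 697 normalized CPM in WT cells and from 2396 to 837 in cells labelled Acod1-/-. Without Ccl9 it went from 489 to 156 and from 420 to 111. Of the 9 macrophage markers, 7 also fell with OI in each genotype, beside the 22.6% and 20.6% of all genes lower. Their median was -0.75 and -0.91, and Fcgr1 fell most, at -1.93 ± 0.06 and -2.14 ± 0.06. Cd68 passed as higher in WT cells and did not pass in the other genotype, and Itgam passed in neither. The summed level of the 9 markers was 14536 to 16731 with OI+PM and 23430 to 27601 with PM, beside 14618 to 14896 with vehicle. The part of this difference in the chemokine result was not tested. Of the neutrophil markers, S100a9, Csf3r and Ngp fell and S100a8 rose with OI in each genotype, with summed levels of at most 74.1 in WT OI+PM libraries and 52.3 to 53.1 in those labelled Acod1-/-, and their part was not tested either. 

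Set against vehicle, cells given OI and PM together had lower CCR2 ligands in both genotypes. Ccl2 was at -4.44 ± 0.19 in WT cells and -5.48 ± 0.21 in cells labelled Acod1-/-, Ccl7 at -5.08 ± 0.23 and -6.51 ± 0.29, and Ccl12 at -4.36 ± 0.43 in WT cells and 31.9-fold lower in the other genotype, with adjusted p of at most 2.58e-05. Ccl4 was also lower, at -1.78 ± 0.22 and -2.66 ± 0.23, and Ccl9 at -0.81 ± 0.07 and -0.61 ± 0.07. Ccl5 was higher than with vehicle, at 1.18 ± 0.24 (adjusted p 0.00180) and 0.98 ± 0.24 (adjusted p 0.00664), and the latter lost its call without the labelled Acod1-/- OI+PM library 2 (0.73, adjusted p 0.0660). Cxcl10 was at -0.53 ± 0.40 and -0.34 ± 0.36 and Cxcl16 at 0.37 ± 0.16 and 0.14 ± 0.16, none of which passed. The WT value of Cxcl16 passed in DESeq2 on all libraries (0.36, adjusted p 0.0447) and rested on 1 library, at 0.65 without WT OI+PM library 1 (adjusted p 6.40e-05) and 0.0338 without library 2 (adjusted p 0.775). Ccl3 was at 0.03 ± 0.17 in WT cells (adjusted p 0.901) and fell by -1.11 ± 0.17 in cells labelled Acod1-/- (adjusted p 0.000432). In all, 6 of the 9 genes passed in WT cells 1 as higher and 5 as lower, beside 65.5% of all genes (33.6% and 31.9%), a share near that background. For cells labelled Acod1-/- 7 of 9 passed, 1 as higher and 6 as lower, beside 49.4% (22.7% and 26.7%). The WT value of Ccl3 rested on 1 library, being -0.31 without WT OI+PM library 2 (adjusted p 0.0336) and 0.30 without library 1 (adjusted p 0.0259). With the length correction it was -0.53 (adjusted p 2.87e-05).

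Between genotypes, no member passed in vehicle-treated cells in edgeR, where 1.83% of all genes did. Ccl7, Ccl3 and Ccl9 had an unadjusted p below 0.05, at -0.54 ± 0.16, 0.38 ± 0.17 and 0.22 ± 0.07. The values were -0.26 ± 0.15 for Ccl2, -0.38 ± 0.24 for Ccl12, 0.41 ± 0.20 for Ccl4, 0.17 ± 0.26 for Ccl5, 0.22 ± 0.35 for Cxcl10 and 0.26 ± 0.16 for Cxcl16. DESeq2 on all libraries called Ccl7 alone. A fit on the 4 vehicle libraries alone called 6 members, with Ccl2 and Ccl7 lower and Ccl3, Ccl4, Ccl9 and Cxcl16 higher in cells labelled Acod1-/-, at between -0.55 and 0.40 on the log2 scale. That fit called 2316 of all genes, beside 205 in the fit of all libraries.

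After PM, Ccl2 and Ccl7 were lower in cells labelled Acod1-/- than in WT cells, by -1.01 ± 0.16 (adjusted p 0.00922) and -1.18 ± 0.17 (adjusted p 0.00548), beside 2.4% of all genes called and 1.3% as lower. The other members did not pass, with Ccl12 at -0.67 ± 0.24, Ccl3 at -0.36 ± 0.17, Ccl4 at -0.20 ± 0.21, Ccl5 at 0.22 ± 0.16, Ccl9 at 0.24 ± 0.07, Cxcl10 at 0.49 ± 0.19 and Cxcl16 at 0.46 ± 0.15. Both PM libraries labelled Acod1-/- lay below both WT PM libraries for Ccl12 and Ccl3, and above them for Ccl5, Ccl9, Cxcl10 and Cxcl16. The share of all tested genes without such overlap was not counted, so this is a description and no sign of a difference. Leaving out either labelled Acod1-/- PM library ended both calls, with adjusted p between 0.0670 and 0.114, and leaving out WT PM library 2 took Ccl2 to -0.82 with an adjusted p of 0.0618. Without WT PM library 2, Cxcl10 was at 0.87 with an adjusted p of 0.0342, and without library 1 it was at 0.18 (adjusted p 0.467). With the length correction 5 members passed, among 590 of all genes, and without either WT OI+PM library 5 did, among 698 and 696, against 269 of all genes with all libraries and no correction.

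With OI+PM, 4 of the 9 genes differed between genotypes, beside 6.96% of all genes, 4.45% as lower and 2.51% as higher. Ccl2 was at -1.31 ± 0.22 (adjusted p 0.0115), Ccl7 at -1.96 ± 0.44 (adjusted p 0.0299) and Ccl3 at -0.75 ± 0.17 (adjusted p 0.0315) in cells labelled Acod1-/-, while Ccl9 was higher by 0.42 ± 0.07 (adjusted p 0.00890). Ccl4 was at -0.46 ± 0.23, Ccl12 at -1.02 ± 0.98, Ccl5 at -0.04 ± 0.22, Cxcl10 at 0.42 ± 0.42 and Cxcl16 at 0.03 ± 0.16, without passing. A fit on the 4 OI+PM libraries alone called none of the 9, and neither did the fit without either labelled Acod1-/- OI+PM library. The count was 2 without WT OI+PM library 2 or without any vehicle or PM library labelled Acod1-/-, and 6 without WT OI+PM library 1, a fit that called 5452 of all genes against 782 with all libraries. The WT OI+PM pair differed most of all pairs, with a chi-square per degree of freedom of 58.5 over genes, against 2.61 to 27.3 in the other groups. The labels give the strain C57BL/6 for WT cells, while the methods of the study give C57BL/6NJ, the background of the Acod1-/- strain, so the labels alone do not settle whether the substrain was shared.

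**Figure D3:**
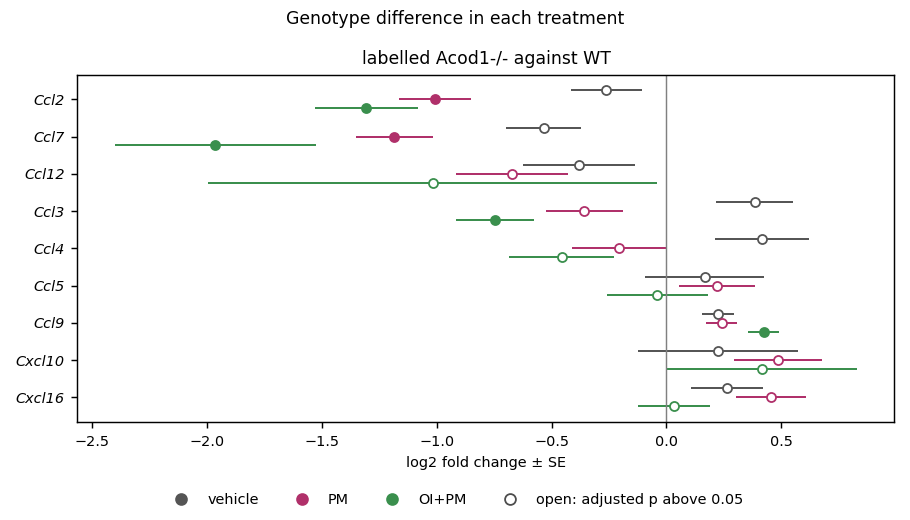
Log2 fold change with its standard error (x axis) of cells labelled Acod1-/- against WT cells for each chemokine gene (y axis), in vehicle (grey), PM (magenta) and OI+PM (green). Filled points have an adjusted p of 0.05 or less. Ccl2 and Ccl7 are filled in PM and OI+PM, between -1.96 and -1.01, and Ccl9 in OI+PM at 0.42.

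The difference between genotypes in the effect of PM was tested as an interaction. No member and 0 of 11228 genes passed in edgeR, where 0% were called and 273 genes had an unadjusted p below 0.05, and DESeq2 on all libraries called 3 genes, none of them members. Ccl2, Ccl3 and Ccl7 had an unadjusted p below 0.05, at -0.74 ± 0.22 (p 0.00697), -0.74 ± 0.24 (p 0.0109) and -0.65 ± 0.23 (p 0.0190), each with an adjusted p of 0.9998. Ccl4 was at -0.62, Ccl12 at -0.30, Ccl5 at 0.0529, Ccl9 at 0.0155, Cxcl10 at 0.26 and Cxcl16 at 0.19. DESeq2 on the 8 vehicle and PM libraries alone called 7 genes, among them Ccl2 (adjusted p 0.00814) and Ccl3 (adjusted p 0.00177). For OI before PM the interactions were -0.30 for Ccl2, -0.78 for Ccl7, -0.34 for Ccl12, -0.39 for Ccl3, -0.25 for Ccl4, -0.26 for Ccl5, 0.18 for Ccl9, -0.0705 for Cxcl10 and -0.42 for Cxcl16. No member had an unadjusted p below 0.05 and 0 genes passed in edgeR, with 717 genes at an unadjusted p below 0.05 and 34 called by DESeq2 on all libraries. Without WT OI+PM library 1, Ccl3 (-0.67, adjusted p 0.0397) and Cxcl16 (-0.70, adjusted p 0.0240) passed, among 525 of all genes. The falls with OI were therefore not shown to differ between genotypes, and not shown to be equal either.

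Of the 9 genes, 7 lie in 2 groups of CC chemokine genes on chromosome 11, both in GRCm38 coordinates. Ccl2, Ccl7 and Ccl12 start within 66.3 kb of each other, on the plus strand, and these were the CC genes with the largest falls with OI. Between and beside them, Ccl11 had 0 counts and Ccl8 at most 7 counts, and neither was tested. Ccl5, Ccl9, Ccl3 and Ccl4 have their lowest coordinates between 1490.2 and 1627.0 kb from the start of Ccl2, with Ccl6 among them. Of these, Ccl4 is on the plus strand and the others on the minus strand. Ccl6, a CCR1 ligand and the neighbour of Ccl9, rose with PM by 0.58 in WT cells and 0.50 in cells labelled Acod1-/-, and fell with OI by -3.21 ± 0.08 and -2.61 ± 0.08, all past the test. Its fall with OI was larger than that of Ccl9 next to it (-1.63 and -1.44). Ccl3 and Ccl4, neighbours at 1612.3 and 1627.0 kb, differed in the same way, with the larger fall for Ccl4. Cxcl16 lies elsewhere on chromosome 11 and Cxcl10 on chromosome 5, where its neighbours Cxcl9 and Cxcl11 had at most 9 and 2 counts. How reads that match several of these related genes were counted is not given in the sources used here.

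**Figure D4:**
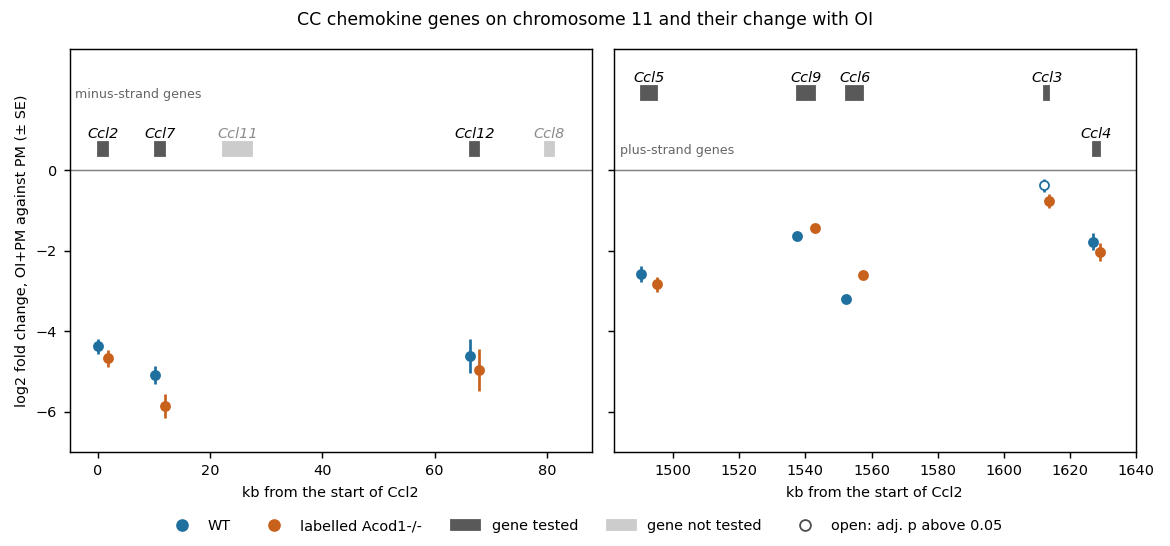
Log2 fold change of OI+PM against PM with its standard error (y axis) for CC chemokine genes on chromosome 11, at their distance from the start of Ccl2 in kb (x axis, the 2 gene groups in separate panels), in WT cells (blue) and cells labelled Acod1-/- (orange). Boxes above 0 show gene extents by strand and carry no y value, and grey boxes are genes with too few counts to test. Ccl2, Ccl7 and Ccl12 lie between -5.87 and -4.38, and the genes of the other group between -3.21 and -0.38.

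The receptors of these ligands and related genes were described as a list of 16, of which 10 were tested. Ccr2, the receptor of Ccl2, fell with PM by -0.98 ± 0.13 in WT cells and -1.16 ± 0.14 in cells labelled Acod1-/-, and with OI by -2.91 ± 0.19 and -1.92 ± 0.20. Ccr1 went the other way, rising by 0.43 ± 0.08 and 0.49 ± 0.08 with PM and by 0.86 ± 0.08 and 0.92 ± 0.08 with OI. Its normalized CPM was 160 and 171 in WT vehicle libraries, 219 and 229 with PM, and 376 and 437 with OI+PM. Ccrl2, an atypical receptor that binds the attractant chemerin, rose with PM by 1.47 ± 0.11 and 1.66 ± 0.11 and fell with OI by -0.79 ± 0.11 and -1.16 ± 0.11. Cx3cr1, the fractalkine receptor, had the largest fall of the list with OI, at -4.73 ± 0.22 and -4.92 ± 0.24. Ccr3, an eosinophil receptor, fell with OI by -2.17 ± 0.09 and -1.70 ± 0.08. Cxcr3 fell with OI by -1.78 ± 0.15 and -1.15 ± 0.13, and Cxcr6 was not tested, at 0.06 normalized CPM or less. Adam17 rose with PM by 0.60 ± 0.06 and 0.79 ± 0.06, and fell with OI by -0.86 ± 0.06 and -0.89 ± 0.06. Adam10 passed only with OI in cells labelled Acod1-/-, at 0.34 ± 0.11. In all, 3 rose and 4 fell with PM in WT cells, and 1 rose and 8 fell with OI. The counts were 3 and 3, and 2 and 8, in cells labelled Acod1-/-. Over all tested genes 12.6% rose and 12.2% fell with PM in WT cells, and 22.6% fell with OI. In cells labelled Acod1-/- these shares were 12%, 11.9% and 20.6%.

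Of 26 other chemokine ligands 10 were tested, and the largest rises with PM were those of the neutrophil attractants Cxcl3 (6.31 ± 0.44 in WT cells and 6.91 ± 0.48 in cells labelled Acod1-/-), Cxcl1 (6.04 ± 0.36 and 5.63 ± 0.27) and Cxcl2 (4.89 ± 0.29 and 4.69 ± 0.28). None of these 3 passed as lower with OI. Cxcl2 was at 125 and 121 normalized CPM in WT PM libraries and 88.1 and 163 in WT OI+PM libraries. With PM 6 rose and 2 fell in each genotype, beside 12.6% and 12% of all genes higher and 12.2% and 11.9% lower. With OI 2 rose and 4 fell in WT cells and 0 rose and 4 fell in cells labelled Acod1-/-. Those lower included Ccl6, Cx3cl1 (-1.69 ± 0.30 and -1.25 ± 0.28) and Ppbp. Over all genes 22.6% and 20.6% passed as lower with OI, so these counts are not far above that background. Between genotypes after PM, Cxcl1 was higher by 1.45 ± 0.18 and Ccl28 lower by -2.12 ± 0.43 in cells labelled Acod1-/-.

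The NF-κB pathway and the interferon pathway control many chemokine genes and were described by lists of 20 and 24 genes. For both lists, the shares of all tested genes are given first, for WT and labelled Acod1-/- cells. With PM 12.6% and 12% of all genes passed as higher, and 12.2% and 11.9% as lower. With OI 22.6% and 20.6% passed as lower, and 43.9% and 34.6% in either direction. All 20 NF-κB genes were tested, and 16 rose and 0 fell with PM in each genotype, with a median of 0.92 and 0.98. Tnf rose by 2.53 ± 0.16 and 2.05 ± 0.16, and the inhibitor genes Nfkbie (2.05 ± 0.13 and 2.11 ± 0.13) and Nfkbia (1.96 ± 0.12 and 1.94 ± 0.12) rose as well. With OI 1 rose and 12 fell in WT cells and 2 rose and 14 fell in cells labelled Acod1-/-, with medians of -0.35 and -0.59. Ikbke fell by -1.82 ± 0.06 and -1.92 ± 0.06 and Nfkbiz by -1.37 ± 0.11 and -1.44 ± 0.11. Of the interferon list 23 were tested, since Ifnb1 had too few counts. With PM 15 rose and 1 fell in WT cells and 16 rose and 1 fell in cells labelled Acod1-/-, led by Ifit1 (3.29 ± 0.15 and 3.02 ± 0.14) and Ifit3 (3.19 ± 0.16 and 2.93 ± 0.15). With OI 2 rose and 17 fell in WT cells and 0 rose and 17 fell in cells labelled Acod1-/-, with medians of -1.50 and -1.47, and Ifit1 fell by -5.29 ± 0.18 and -4.91 ± 0.17.

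Likeness over the 12 libraries was described by Pearson's r of log2 CPM, without a test, since libraries of a group and the treatments are shared by all genes. Among the 9 genes 2 patterns were seen. Ccl2, Ccl7, Ccl12 and Ccl4 had r of 0.918 to 0.997 with each other, and Ccl5, Cxcl10 and Cxcl16 had r of 0.93 to 0.98. Between these 2 sets r was 0.13 to 0.56. Ccl9 lay between them, with 0.71 to 0.77 to the first set and 0.72 to 0.91 to the second, and Ccl3 was nearest to Ccl4 (0.81). Among 9564 genes with a mean of at least 5 CPM, the nearest gene outside the list was Ezh2 for Ccl2 (r 0.996), Ccne1 for Ccl7 (0.994), Pkmyt1 for Ccl12 (0.993), Galns for Ccl3 (0.936) and Ckb for Ccl4 (0.994). It was Cdc42ep2 for Ccl5 (0.995), Il27ra for Ccl9 (0.993), Tlr2 for Cxcl10 (0.991) and Slc31a2 for Cxcl16 (0.996).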

How the data were processed

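RNA of 12 BMDM libraries was measured by single-end sequencing. Per the labels and the methods of the study, the authors checked reads with FastQC 0.11.5, mapped them to GRCm38 with STAR 2.5.3a, used Picard 2.9.0, and counted reads per gene with featureCounts, whose version is not given in the sources used here, nor are annotation release, strand and multiply mapped reads. The deposited values are raw counts per Ensembl gene, with neither scaling nor filter. Groups and replicate numbers came from sample titles.

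Genes with CPM above 1.5 in at least 2 of the 12 libraries were tested. Counts were scaled by TMM and fitted in edgeR 4.0.16 (R 4.3.3), with a mean for each of 6 groups, and all contrasts were tested by the quasi-likelihood F test with Benjamini-Hochberg adjustment over 11228 genes. A gene changed when its adjusted p was 0.05 or less. The SE is the one implied by the F statistic. DESeq2 1.42.0, other scalings and filters, a block for replicate number, a correction for gene length and fits without 1 library at a time were alternatives, and the fits were tested on simulated data. Gene positions and lengths came from a GENCODE annotation of GRCm38, promoters from RefSeq. All 9 genes are named in every comparison, with Acod1, receptors, neighbouring ligands, the 3 largest changes of a list and the nearest gene of each member. Members and lists were chosen with earlier results of these data known. Intervals of ratios are exact (95%, Clopper-Pearson). Some genes of the lists are counted but not reported here by name.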

Additional observations from a re-analysis of the deposited data

Results flagged for a closer look

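Ccl3 lay on opposite sides of vehicle with PM in the 2 genotypes, though neither difference passed (log2 fold change 0.40, adjusted p 0.102, in WT cells, and -0.34, adjusted p 0.174, in cells labelled Acod1-/-). Both WT PM libraries were above both vehicle libraries, and both PM libraries labelled Acod1-/- were below theirs. The interaction was -0.74 ± 0.24 on the log2 scale, with p 0.0109 and an adjusted p of 0.9998 in edgeR, so the difference did not pass over all genes. With the length correction Ccl3 was at 0.092 in WT cells (adjusted p 0.293) and at -0.61 in cells labelled Acod1-/- (adjusted p 3.23e-05), and the interaction of -0.70 again did not pass.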

How the results depend on the processing

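Of 2442 log2 fold changes of the 9 genes under alternatives, 2245 kept direction and call, 62 lost the call, 89 gained it and 46 changed sign. The number kept was partly set in advance. A fit without a library outside the groups compared leaves the fold change nearly as it was, and the 2-fold rules reuse it. A library left alone in its group was assumed to vary like the other groups. The main limit is 2 libraries a group, and the lowest counts are those of Ccl12 and Ccl7 with OI+PM.

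The number of the 9 genes that passed changed as follows, where smaller changes with a setting are not all named. For PM in WT cells it was 7 with the length correction, with or without the replicate block, and 4 to 5 with a library left out. For PM in cells labelled Acod1-/- it was 3 with a minimum of 2-fold or a test against 2-fold (glmTreat), and 5 to 8. For OI in WT cells it was 5 where CPM above 1.5 was required in all libraries, which left Ccl7, Ccl12 and Cxcl10 untested, and 8 to 9. For OI in cells labelled Acod1-/- it was 6 where CPM above 1.5 was required in all libraries. It was 8 with a minimum of 2-fold or with glmTreat, and 9 throughout the libraries left out. Between genotypes in vehicle it was 1 in DESeq2 on all libraries, 6 in edgeR and 5 in DESeq2 on the compared groups alone, 4 with the length correction, 5 with that and the block, and 0 to 3 with a library left out. In PM it was 1 with the filter over all libraries, 0 with glmTreat, 5 with the length correction, 6 with that and the block, and 0 to 5. In OI+PM it was 0 in edgeR and 2 in DESeq2 on the compared groups alone, 2 with a minimum of 2-fold, 0 with glmTreat, and 0 to 6. For OI+PM against vehicle it was 4 with glmTreat in cells labelled Acod1-/-, and 6 to 8 in WT cells and 6 to 7 in the other genotype with a library left out. For the PM interaction it was 2 in DESeq2 on the compared groups alone and 0 to 0 with a library left out, and for the OI interaction 0 to 2.

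The log2 fold change of Ccl7 with PM in WT cells became -0.0072 in DESeq2 on all libraries, -0.0037 on the compared groups alone, -0.0073 with RLE scaling, -0.0843 with total counts, and -0.30 with the length correction, alone or with the block. That of Ccl12 became -0.077 with the length correction and -0.0792 with that and the block. Between genotypes in OI+PM, Ccl5 became 0.0383 with total counts and 0.20 with either length correction. For OI+PM against vehicle, Ccl3 in WT cells became -0.21 with total counts, -0.0199 with the filter over all libraries and -0.53 with either length correction, and Cxcl16 in cells labelled Acod1-/- became -0.0067 with total counts. The OI interaction of Cxcl10 became 0.0053 with the length correction. Total counts moved the median of all genes by -0.13 for OI in WT cells, and by -0.22 and -0.15 for OI+PM against vehicle in WT and labelled Acod1-/- cells.

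Signs also changed with a library left out. With PM in WT cells, Ccl2 ranged from -0.25 to 0.10, Ccl7 from -0.17 to 0.17 and Ccl4 from -0.21 to 0.16, and with PM in cells labelled Acod1-/- Ccl12 ranged from -0.29 to 0.18. Between genotypes in OI+PM, Ccl12 ranged from -1.96 to 0.78, Ccl4 from -0.82 to 0.0218, Ccl5 from -0.36 to 0.34 and Cxcl16 from -0.24 to 0.37. Ccl3 in OI+PM against vehicle in WT cells ranged from -0.31 to 0.30. In the PM interaction Ccl5 ranged from -0.0411 to 0.14, Ccl9 from -0.0129 to 0.0444 and Cxcl10 from -0.0413 to 0.65. In the OI interaction Ccl2 ranged from -0.59 to 0.0396, Ccl12 from -1.28 to 1.46, Ccl4 from -0.62 to 0.23, Ccl5 from -0.58 to 0.12 and Cxcl10 from -0.46 to 0.25. The cause was not tested.

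Deviations of same-numbered libraries correlated at -0.41 to 0.73 between groups, so the numbers were not taken to pair libraries in the main fit. The highest value, 0.73, was that of WT PM with WT OI+PM, the groups compared for OI in WT cells. In that comparison 8 of the 9 genes passed with the replicate block, as in the main fit. With the replicate block 7 of the 9 genes passed for PM in cells labelled Acod1-/-, where Ccl4 was added. An exchange of the numbers of the PM libraries labelled Acod1-/-, chosen after seeing the data, gave 5 for PM in WT cells and 7 in the other genotype.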
